A study of Nezara viridula with 24 samples.

Results

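RNA levels in the second section of the midgut (M2) were compared with those in the first section (M1) in adult Nezara viridula, a plant-feeding stink bug known as the southern green shield bug. The comparison took 12 of the 24 libraries of the series, chosen by their labels alone. They comprised 3 libraries of each section from insects on corn and 3 of each section from insects on green bean. All insects were kept at 27 °C and 65% relative humidity, moved to fresh food of their diet at the adult moult and dissected after 24 h. Each library was made from polyadenylated RNA of the tissue of 4 to 10 pooled individuals, so variation between single insects was not measured. The labels do not state if pools derive from independent cultures, and p-values measure the spread between these pools only. In bulk tissue, a change in the make-up of the cells and a change in RNA per cell cannot be told apart.

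Stink bugs feed by piercing plant tissue, injecting saliva and sucking up the liquefied food. The food then passes along a midgut made of successive sections of different shape, beginning with a sac-like M1 that receives the meal and continuing with a tubular M2. True bugs are known for digesting protein in the midgut largely with cathepsin-type proteases, and midgut epithelia also carry the transporters and detoxifying enzymes that handle plant food. These roles are background. The deposited tables give identifiers from Trinity, a program that assembles transcripts from reads without a genome, and hold no gene names or sequences. No enzyme, transporter or marker of a section could therefore be looked up, and the dissected sections could not be checked against known markers. Isoforms were summed to 201329 Trinity genes, and genes appear under their assembly identifiers.

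The 12 libraries held between 17819164 and 28851317 estimated counts. After removal of low genes, 17837 genes were tested, holding 97.88% to 99.83% of the counts of each library. The 4 libraries of corn replicates 2 and 3 detected 38270 to 44573 genes, and the other 8 detected 64667 to 105966. The labels give no reason for this split, which runs across both sections alike. Scaling factors from the trimmed mean of M-values (TMM) followed it, with 0.552 to 0.81 in those 4 libraries and 1.091 to 1.351 in the other 8. The number of genes that together held 50% of the counts was 102 ± 42.6 in M1 and 104 ± 48.1 in M2 (SD, n = 6 each, exact permutation test, two-sided p = 0.9351, 0.9351 after adjustment over 2 measures). Thinned to the total of the shallowest library, M1 libraries detected 58500 ± 18800 genes and M2 libraries 61700 ± 25200 (exact permutation p = 0.8052, adjusted 0.9351). A p of this size does not show that the sections are alike in these measures, and the smallest p this unpaired test allows is 0.00216. With libraries paired by diet and replicate number, the permutation p was 0.8125 and 0.4062, without adjustment.

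The sections separated along the first principal component of log2(CPM + 1), where CPM is the gene's count per 1000000 counts of the TMM-scaled library total. This component held 37% of the variance. All 6 M1 libraries lay between -64.49 and -31.16 on it and all 6 M2 libraries between 18.44 and 75.37. The next component, with 28.1%, placed all 4 libraries of corn replicates 2 and 3 at negative values, from -79.32 to -27.25, and the other 8 at positive values.

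**Figure D1:**
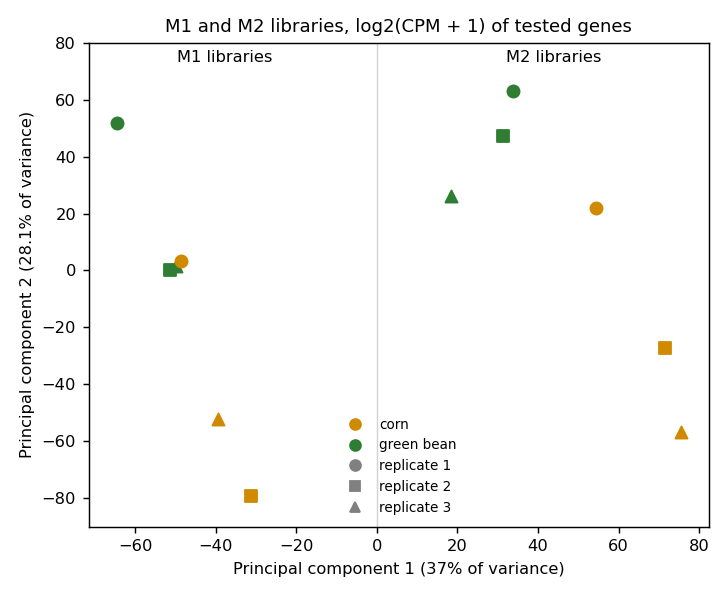
Scores of the 12 libraries on the first (x axis, 37% of variance) and next (y axis, 28.1%) principal component of log2(CPM + 1) over 17837 genes. Colour marks the diet and shape the replicate number. M1 libraries lie left of 0 and M2 libraries right of it, and corn replicates 2 and 3 lie at the bottom.

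To find which genes distinguish M2 from M1 whatever the diet, the 6 M2 libraries were tested against the 6 M1 libraries with diet as a covariate. Of 17837 genes, 859 were higher in M2 (4.82%) and 1092 were lower (6.12%), at an adjusted p under 0.05 in edgeR's quasi-likelihood test. These 1951 genes make up 10.9% of those tested. Over all tested genes the median log2 fold change was -0.0017. The lower genes changed more, with a median log2 fold change of -2.84 against 2.08 for the higher ones. At least 4 on the log2 scale separated the sections for 301 of the lower genes and 159 of the higher ones. Values of the 6 libraries of one section did not overlap those of the other for 1161 genes (6.51% of those tested), among them 443 of the higher and 668 of the lower calls. With counts scaled to library totals in place of TMM (a choice made once the data had been seen), the median of all genes moved to 0.169 and the balance of calls turned to 1164 higher and 853 lower. Of these, 757 and 838 were also called with TMM. Which direction holds more calls therefore depends on the scaling.

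Among genes without overlap between the sections, the largest rise in mean CPM belonged to TRINITY_DN378_c0_g1. Its share of all counts was 0.0461%, 0.0258% and 0.0304% in M1 on corn and 0.0275%, 0.0301% and 0.0678% in M1 on green bean. In M2 it took 5.08%, 5.4% and 8.89% of the counts on corn and 4.35%, 8.02% and 6.25% on green bean (replicates 1 to 3 in each case). Every M2 library thus stood far above every M1 library, and the diets overlapped within each section. By mean CPM the gene ranked 362 in M1 and 2 in M2. Its log2 fold change was 7.31 (SE 0.49, edgeR adjusted p = 1.1913e-06), which corresponds to a 159-fold difference. Fitted on corn alone the log2 fold change was 7.4 (SE 0.75, edgeR adjusted p = 0.0009452) and on green bean alone 7.07 (SE 0.59, edgeR adjusted p = 0.004059). The high level did not extend into the following section, where TRINITY_DN378_c0_g1 held 0.454% to 1.11% of the counts in 6 M3 libraries. All 6 lay below the lowest M2 library and above the highest M1 library. In corn salivary glands, read from the table of corn libraries, it stood at 50.2 to 125 CPM.

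TRINITY_DN256_c0_g1 showed the next largest rise. It held 0.00535%, 0.00452% and 0.00453% of the counts in M1 on corn and 0.00557%, 0.00455% and 0.00434% in M1 on green bean. In M2 the shares were 0.533%, 0.673% and 1.1% on corn and 0.752%, 0.489% and 0.443% on green bean. The 6 M1 values lay close together, and the M2 values spread more widely without coming near them. The log2 fold change was 6.98 (SE 0.44, edgeR adjusted p = 8.6989e-07). In M3 its share was 1.4% to 2.57% of the counts, above that of every M2 library. As CPM scaled over the 18 midgut libraries the sections overlapped, since corn M2 replicate 3 lay above 3 of the 6 M3 libraries. The difference between M3 and M2 was not tested here.

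The isoforms of TRINITY_DN256_c0_g1 did not move alike. In M1, isoform i6 accounted for 96.1% of the gene's CPM, and in M2 isoform i7 accounted for 93.8%. Isoform i6 ran from 34.7 to 74.8 CPM in M1 and from 88.3 to 163 CPM in M2, without overlap (log2 fold change 1.21, SE 0.25, edgeR adjusted p = 0.0176 over transcripts). Isoform i7 ran from 0 to 6.2 CPM in M1 and from 3380 to 16400 CPM in M2. Isoforms of a Trinity gene can share reads, and their division among isoforms is uncertain. In TRINITY_DN378_c0_g1, by contrast, isoform i1 was the most abundant in both sections, with 84.2% of the gene's CPM in M1 and 64.6% in M2, while i9 went from 6.27% to 21.5%.

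**Figure D2:**
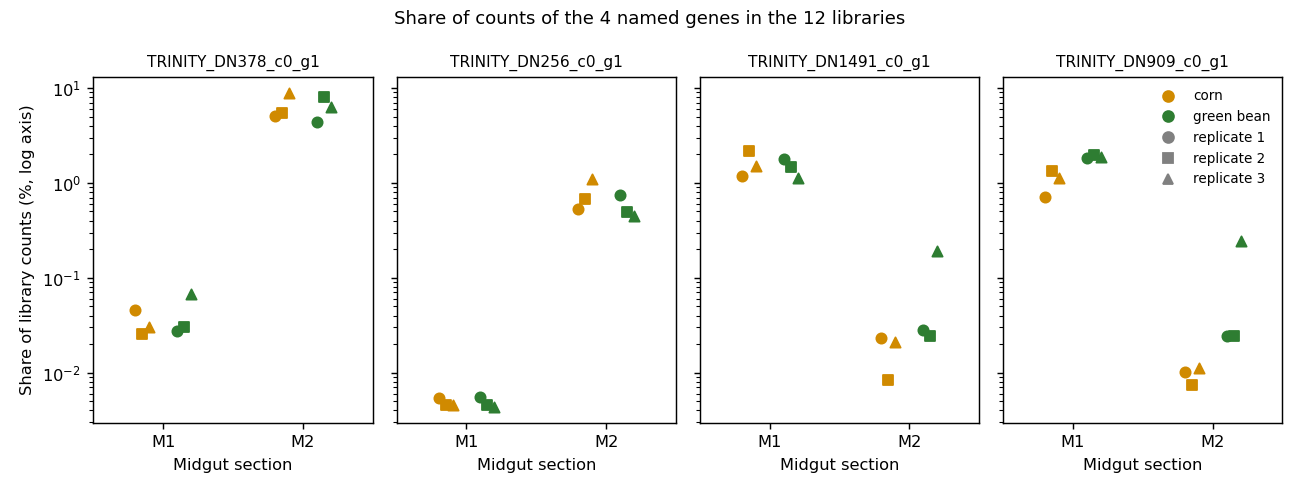
Share of library counts (y axis, %, log scale) of the 4 named genes in each M1 and M2 library. Each point is a library, with colour for diet and shape for replicate. The first pair lies lower in every M1 library than in any M2 library, the other pair higher, and the green bean M2 replicate 3 point stands highest among the M2 points of the latter.

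The largest fall among such genes belonged to TRINITY_DN1491_c0_g1, which ranked 3 by mean CPM in M1 and 303 in M2. It held 1.17%, 2.18% and 1.49% of the counts in M1 on corn and 1.78%, 1.48% and 1.13% in M1 on green bean. In M2 it held 0.0233%, 0.00844% and 0.0208% on corn and 0.0282%, 0.0241% and 0.19% on green bean. All M2 libraries lay below all M1 libraries, but green bean M2 replicate 3 stood well above the other 5. The log2 fold change was -5.6 (SE 0.82, edgeR adjusted p = 0.00058404), and -6.48 without that library. On corn alone it was -6.98 (SE 0.84, edgeR adjusted p = 0.002011). On green bean alone it was -4.34 (SE 0.98) and did not pass the test (edgeR adjusted p = 0.06205). It passed there with DESeq2 (-4.34, adjusted p = 4.978e-07) and in edgeR with a stricter filter on low counts (-4.37, adjusted p = 0.03616). It did not pass in edgeR with size factors from DESeq2 (adjusted p = 0.06453) or library totals (0.05986) in place of TMM. Nor did it with a replicate block (edgeR adjusted p = 0.1221) or no filter on low counts (0.614). In edgeR without green bean M2 replicate 3 it was -5.98 and passed (adjusted p = 0.004735). Without any other single green bean library it did not pass (edgeR adjusted p = 0.1262 to 0.1785).

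TRINITY_DN909_c0_g1, the next largest fall, had the same outlying library. Its shares were 0.718%, 1.34% and 1.12% in M1 on corn and 1.85%, 1.95% and 1.86% in M1 on green bean, set against 0.0102%, 0.00735% and 0.0112% in corn M2. In green bean M2 they were 0.0246%, 0.0242% and 0.246%, the last in replicate 3. The log2 fold change was -5.74 (SE 0.86, edgeR adjusted p = 0.0007435), and -6.8 without green bean M2 replicate 3. It was -7.2 on corn alone (SE 0.77, edgeR adjusted p = 0.001225). On green bean alone it was -4.41 (SE 1.11, edgeR adjusted p = 0.08593), and -6.44 without that library (0.002389). With all the green bean libraries, no alternative in edgeR made it pass (adjusted p = 0.05055 to 0.6917). DESeq2 gave no adjusted p for it there. Without any other single green bean library it did not pass (edgeR adjusted p = 0.15 to 0.1967). Both genes stayed low in M3, at 0.0197% to 0.0545% and 0.0106% to 0.0769% of the counts, and the 3 most abundant isoforms of each fell together, with log2 fold changes from -5.92 to -5.53 for the first gene and from -6.04 to -5.49 for the other (edgeR adjusted p at most 0.008895).

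Highly expressed genes were called in a larger share than others, and most of those calls were on the lower side. Among 157 genes with a mean of at least 1000 CPM in one of the sections, 51 were lower in M2 (32.5%) and 14 were higher (8.92%). Among 1357 genes between 100 and 1000 CPM, 198 (14.6%) were lower and 125 (9.21%) higher. Below that the shares were closer, with 6.19% lower and 5.63% higher of 4458 genes between 10 and 100 CPM. From 1 to 10 CPM they were about the same, at 6.25% and 5.56% of 5649 genes. Under 1 CPM they were 3.44% and 2.49% of 6216 genes. Highly expressed genes also have less counting error, and its part in these shares was not tested. Nor was the difference between the directions.

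**Figure D3:**
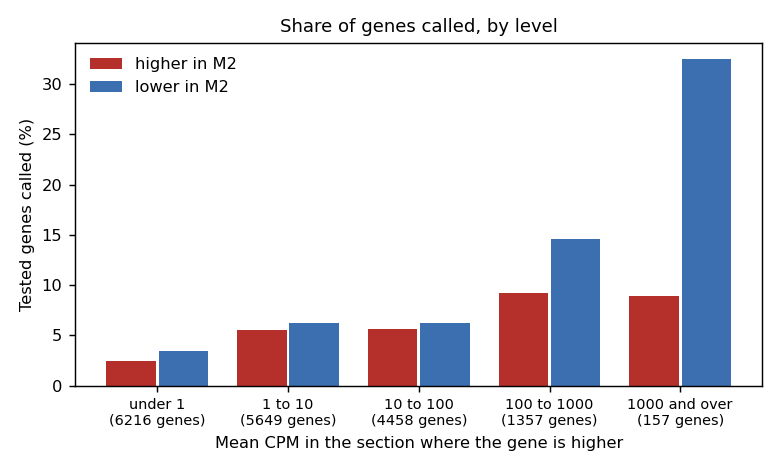
Percent of tested genes called (y axis) in 5 classes of mean CPM in the section where the gene is higher (x axis), with higher and lower calls as separate bars. The share of lower calls reaches 32.5% in the top class, against 8.92% for higher calls.

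The called genes accounted for a sizeable part of the RNA. The 1092 lower genes held 27.6% ± 2.37 of M1 counts on corn and 23.1% ± 0.404 on green bean, which compares with 2.77% ± 0.12 and 4.18% ± 1.4 in M2 (SD, n = 3 each). The 859 higher genes held 1.87% ± 0.314 and 1.75% ± 0.194 in M1 and 14.6% ± 1.8 and 13.6% ± 1.04 in M2. These sets were chosen on the same libraries, so the shares describe the size of the difference and do not test it. The 25 lower genes with the largest CPM difference held 13.2% to 18.3% of the counts in the M1 libraries and 0.416% to 2.03% in M2, and the 25 higher ones went from 0.171% to 0.309% up to 7.96% to 12.4%. TRINITY_DN378_c0_g1 belongs to both higher sets and alone held 4.35% to 8.89% of the counts in the M2 libraries. A large part of both shares in M2 was thus the share of this gene.

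**Figure D4:**
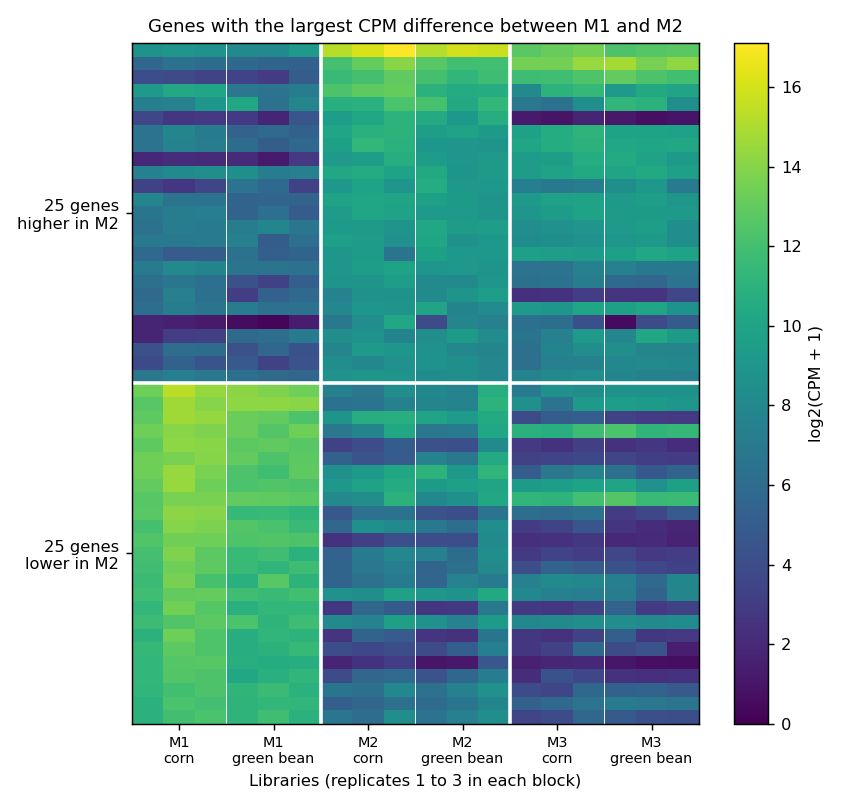
Level as log2(CPM + 1), on a scale common to the 18 midgut libraries, of the 25 called genes with the largest CPM rise (top) and the 25 with the largest fall (bottom) from M1 to M2. Columns are libraries by section and diet, replicates 1 to 3 in each block. M3 had no part in the choice. The top row is TRINITY_DN378_c0_g1, brightest in the 6 M2 libraries.

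Complete absence from one section was rare among the called genes. Of the 859 higher genes, 22 were at 0 counts in all 6 M1 libraries, and 4 of these reached 1 CPM in M2. Of the 1092 lower genes, 11 were at 0 counts in all 6 M2 libraries, and 4 of these had reached 1 CPM in M1. All other called genes had counts in both sections. A gene at 0 counts in one section passed the filter on low counts through the other section only. The share of such genes among all tested genes is not given here. A count of 0 over the 6 libraries of a section allows up to 3 counts, for counting error only.

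Tested as deposited, without summing isoforms, 685 of 37253 transcripts were higher in M2 (1.84%) and 1092 lower (2.93%). Of the 1951 called genes, 1107 had a called transcript and 844 had none, and 131 genes had a called transcript without being called themselves. Among 294 genes with at least 2 called transcripts, 18 had transcripts called in both directions, and 9 of these were not called at gene level. Called genes of one Trinity component, which overlap in sequence and can share reads, mostly moved alike. Of 103 components with at least 2 called genes, 92 had all their calls in 1 direction. Unrelated called genes also often share a direction, since 44% of all 1951 calls were higher and the rest lower. Whether the share of components with calls in 1 direction exceeds that among unrelated called genes was not tested.

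The diets share no library, so the difference between sections was also fitted in each diet apart. On corn, 319 of 12578 genes were higher in M2 (2.54%) and 582 lower (4.63%). On green bean, 442 of 15289 were higher (2.89%) and 444 lower (2.9%). Of the genes tested on both, 174 were called higher on both, 60.6% of the corn calls and 47.9% of the green bean calls, where 3.07% of all these genes were called higher on green bean and 2.42% on corn. On the lower side, 232 were called on both, 44.4% of the corn calls and 62.2% of the green bean calls, against 3.15% and 4.42% of all genes. No gene was called in opposite directions. Of 287 genes called higher on corn, 279 (97.2%) were also above 0 on green bean, and of 523 called lower, 518 (99%) were below 0. Among all 11838 genes tested on both, 48.7% were above 0 and 51.3% below 0 on green bean. These calls rest on 3 against 3 libraries and depend on single ones. With 5 libraries and the same genes, green bean gave 160 to 293 higher calls, fewest without M2 replicate 1. Its lower calls numbered 99 without M2 replicate 1, 103 without M2 replicate 2, 150, 173 and 283 without M1 replicates 2, 3 and 1, and 443 without M2 replicate 3. On corn, 170 genes were higher without M1 replicate 3, and 181 were higher and 323 lower without M2 replicate 2.

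**Figure D5:**
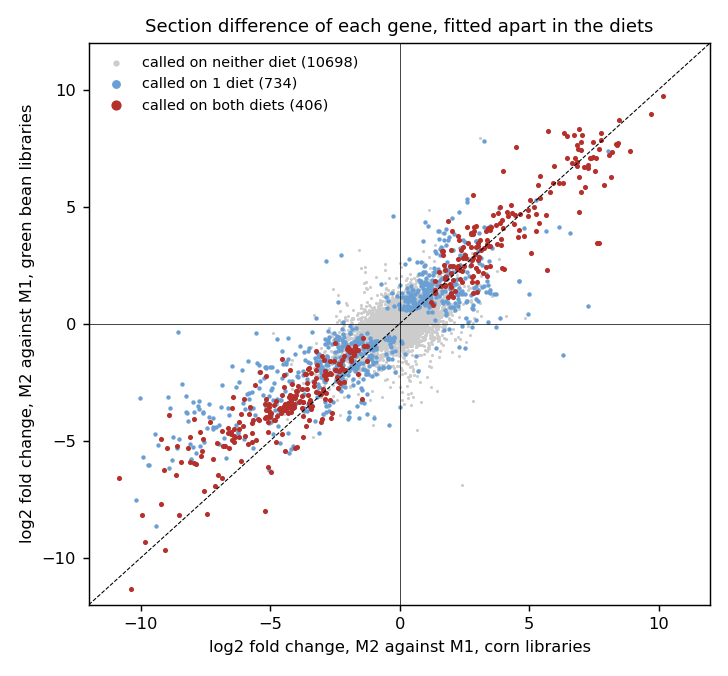
Log2 fold change of M2 against M1 for 11838 genes, fitted in corn libraries (x axis) and in green bean libraries (y axis), which share no library. Colour marks genes called on neither, 1 or both diets, and the dashed line marks equal values. Genes called on both diets lie in the upper right or lower left. Of the 523 genes called lower on corn, 471 fell less on green bean, and 410 without green bean M2 replicate 3. These genes were chosen on corn, and the part of that choice in the difference was not tested.

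Whether the section difference itself depended on the diet was tested with the interaction of section and diet. edgeR called 0 of 17837 genes (lowest adjusted p = 0.3735, 0% called), and 565 genes (3.17%) had an unadjusted p under 0.05. DESeq2 called 65. For the 4 named genes the unadjusted p of the interaction was 0.5368 for TRINITY_DN378_c0_g1, 0.4446 for TRINITY_DN256_c0_g1, 0.04558 for TRINITY_DN1491_c0_g1 and 0.0449 for TRINITY_DN909_c0_g1, each with an edgeR adjusted p of 0.9999. These values do not show that the diets act alike.

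Green bean M2 replicate 3 stood apart for the genes of M1. Of the 582 genes called lower in M2 on corn, a choice in which no green bean library had a part, 428 (73.5%) had their highest green bean M2 value in replicate 3. Over all 12570 genes the share was 35%. Replicate 3 exceeded the mean of the other 2 libraries by a median of 0.5 on the log2 scale for these 582 genes and by 0.02 for all. Together they held 4.59% of its counts, against 2.33% and 2.34% in replicates 1 and 2 and 20.4% to 20.8% in green bean M1. For the 523 of these genes also tested on green bean, the median log2 fold change was -3.94 on corn and -2.79 on green bean, and -3.25 on green bean without that library. The fall was smaller on green bean than on corn for 471 of the 523 genes, and for 410 without it. These genes were chosen on corn, and the part of that choice in the difference was not tested. For the 373 genes called lower on green bean and tested on both, the median was -2.79 on green bean and -2.96 on corn. For the 287 genes called higher on corn the medians were 2.96 on corn, 2.73 on green bean and 2.75 without the library. Corn M2 replicate 3 showed a smaller excess. Of the 444 genes called lower on green bean, 206 (46.4%) had their highest corn M2 value there, against 29.7% of all 15289. Its median excess over the mean of the other 2 corn M2 libraries was 0.08 on the log2 scale for the 444 and -0.04 for all. Leaving out green bean M2 replicate 3 gave 739 higher and 1038 lower calls over both diets, against 859 and 1092 with all 12 libraries. Leaving out any 1 of the 12 lowered the calls, to 660 to 833 higher and 921 to 1053 lower. The part of green bean M2 replicate 3 in the number of calls therefore cannot be read from this fall.

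M3 follows M2 along the gut, and its 6 libraries had no part in the test. Levels for this were scaled over all 18 midgut libraries. Of the 1092 genes lower in M2, M3 lay below M2 for 757 (69.3%), between the sections for 295 (27%) and above M1 for 40 (3.66%). Among all tested genes with a lower mean in M2, these shares were 52.3%, 20.8% and 27%. On the log2(CPM + 1) scale M3 was nearer to M2 than to M1 for 91.6% of the 1092, against 64.2% of all genes with a lower mean in M2. The 1092 genes held 3.23% ± 0.105 of M3 counts on corn and 3.2% ± 0.153 on green bean (SD, n = 3 each). For the 859 genes higher in M2, M3 lay above M2 for 388 (45.2%), between for 409 (47.6%) and below M1 for 62 (7.22%). Among all tested genes with a higher mean in M2, these shares were 45%, 28.6% and 26.3%. The share with M3 above M2 was thus about that of all such genes. M3 was nearer to M2 for 69.7% of the 859, against 63.2% of all genes with a higher mean in M2. The 859 genes held 10.4% ± 0.618 and 9.91% ± 0.551 of the counts in M3. TRINITY_DN378_c0_g1 alone held 0.454% to 1.11% there, against 4.35% to 8.89% in M2. Genes were chosen for a difference between M1 and M2, which by itself places M3 between them more often, and no test was made.

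Salivary glands were set beside the sections on corn, in the table that holds both. Of the genes with a corn mean of at least 1 CPM in M1 or M2, 390 of 848 lower ones (46%) and 438 of 686 higher ones (63.8%) reached 1 CPM in the glands, against 80.3% of all 10809 tested genes. No count in any of the 3 gland libraries was found for 122 of the 848 (14.4%) and 32 of the 686 (4.66%), against 3.16% of all. TRINITY_DN1491_c0_g1 and TRINITY_DN909_c0_g1, at 9.42 to 27.7 and 6.42 to 20.7 CPM in glands, were present there at low levels.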

How the data were processed

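Polyadenylated RNA was sequenced from dissected midgut sections. The deposited values are estimated counts per transcript, rounded to whole numbers. The submitters' processing notes list Salmon 0.12, Trim Galore 0.4.4 and DESeq2 1.20.0 without saying what each was used for. The reference and the counting options are not given in the sources used here. A transcript's estimated count in a given library differs slightly between the deposited tables, so each test stayed within one table. Members and lists were chosen with earlier results of these data known.

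Isoforms of the 18-library midgut table were summed to Trinity genes. Genes were kept by filterByExpr on the 4 groups of section and diet and scaled by TMM in edgeR 4.0.16 (R 4.3.3). A model with diet and section was fitted to the 12 libraries with glmQLFit (robust) and tested two-sided with glmQLFTest. P-values were adjusted by Benjamini and Hochberg's method over all genes tested, with a threshold of 0.05. Standard errors are the log2 fold change divided by the square root of F. The script was tested on simulated data. Alternatives included DESeq2 1.42.0, other filters and scalings, other sets of libraries and a replicate block. The rule for named genes took called genes that changed at least 2-fold either way with no overlap of 6 and 6 libraries, and among them the 2 largest rises and 2 largest falls in mean CPM.

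Totals of 17819164 or more counts make 3 counts well under 1 CPM. Chi-square per degree of freedom between replicates of a group was 82.9 to 260, far above sampling noise, so none appeared to be 1 library given again. The groups carry the same replicate numbers. Deviations from group means correlated between same-numbered M1 and M2 libraries of a diet with r = 0.67, 0.27 and 0.59 on green bean and 0.7, 0.15 and 0.24 on corn, so the numbers were taken to pair the libraries within a diet. For 4 of the 6 M1 libraries, the same-numbered M2 library was the one that correlated best. The main test leaves this pairing out, and the replicate block uses it. The gland table was not used here.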

Additional observations from a re-analysis of the deposited data

Results flagged for a closer look

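Among 26 sets of 6 libraries examined, 7 had a library whose distance to its nearest neighbour was large against the whole range. Chance meets this criterion for about 1 in 20 sets if the values are normally distributed. The sets pool both diets and hold values that were not log-transformed, and that condition was not tested. The sets overlap in what they measure, so the 7 are not independent.

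Green bean M2 replicate 3 was the distant library in 5 of them. TRINITY_DN1491_c0_g1 stood there at 1553 CPM, with 316.1 CPM in the next highest M2 library, and at 0.19% of the counts, with 0.0282% in the next. TRINITY_DN909_c0_g1 stood at 2014 CPM against 201.2 CPM and at 0.246% of the counts against 0.0246%. The 1092 genes lower in M2 together held 5.8% of its counts, against 3.41% in the next M2 library.

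Corn M2 replicate 3 was the distant library in the other 2. TRINITY_DN378_c0_g1 stood there at 135300 CPM, against 66820 CPM in the next, and TRINITY_DN256_c0_g1 at 16790 CPM against 8326 CPM. The TMM factor of this library was 0.658, which raises its CPM. As shares of the counts, at 8.89% and 1.1%, it was the highest for both genes but not distant by the same criterion.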

How the results depend on the processing

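The 4 named genes kept their direction and passed the test under all 11 alternatives and without any 1 of the 12 libraries, with log2 fold changes, in the order named above, of 6.95 to 7.39, 6.65 to 7.15, -6.44 to -4.7 and -6.83 to -4.86 under the alternatives, and of 7.01 to 7.55, 6.66 to 7.12, -6.48 to -5.22 and -6.8 to -5.41 with 1 library left out. A replicate block gave 1194 higher and 1368 lower genes and changed no call of the named genes. Higher calls became 1311 with a term for corn replicates 2 and 3; the other alternatives gave 685 to 1197 higher and 853 to 1462 lower genes, and leaving out 1 library gave 660 to 833 and 921 to 1053. The interaction gave 65 genes with DESeq2, 73 with no filter on low counts, and 0 under the other 10 alternatives and without any 1 library. On corn alone, higher calls were 501 with DESeq2 and 130 over transcripts, and with 1 library left out 170 to 361 higher and 323 to 601 lower. On green bean alone, higher and lower calls were 891 and 1063 with DESeq2, 816 and 879 with no filter, and 116 and 69 over transcripts; lower calls were 684 with a stricter filter, at least 10 counts in every library of a group. With 1 library left out they were 160 to 293 and 99 to 443. Over transcripts, DESeq2 called 1532 higher and 2054 lower, the fit to all 18 midgut libraries 1036 higher, and the fit without the 4 corn libraries numbered 2 and 3 351 higher and 379 lower. The difference (M2 minus M1) in the number of genes holding 50% of the counts was 1.833, and turned to -2.167 over transcripts and -0.3333 on corn alone, with -9.533 to 16.57 on leaving out 1 library. That in genes detected was 3188, and turned to -116 among the genes of the main test, with -4153 to 8849. The cause was not tested for any of these changes, apart from fits with fewer libraries. Genes under 1 CPM are limited by depth.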
